A study of Mus musculus with 6 samples.

Results

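Immune checkpoint genes were examined in orthotopic hepatocellular carcinoma (HCC) tumors of mice that were left untreated or given GOx-DOX-LGP, a lipid–gelatin–protamine nanogel that carries glucose oxidase (GOx) and the chemotherapeutic doxorubicin (DOX). The set was defined by gene symbol, with earlier results of these data known, and holds 10 of the 55536 genes in the count table. It comprises the receptors PD-1 (Pdcd1), CTLA-4 (Ctla4), LAG-3 (Lag3), TIGIT (Tigit) and TIM-3 (Havcr2), the ligands PD-L1 (Cd274), PD-L2 (Pdcd1lg2), CD80 and CD86, and the transcription factor Tox. All 10 genes passed the filter on low counts, as did 15374 genes in all. Both groups were male C3H mice (C3H/HeNCrNarl in the study's methods), 6 to 8 weeks old, that received 1000000 HCA-1 cells, a murine HCC line, under the liver capsule. The control group of 3 tumors (controls 5, 6 and 7) was untreated. The GOx-DOX-LGP group of 3 tumors (GOx-DOX-LGP 1, 2 and 5) was dosed intravenously on days 18, 19 and 20. However, the labels date the RNA measurement to day 17, with 3 h of circulation. The study's methods place the harvest after the last dose for quantitative PCR, and give no harvest day for sequencing. A group given empty nanogel was not analysed here, and each tumor is whole tissue from the liver of a host with its own immune system.

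Checkpoint receptors are brakes on activated lymphocytes. PD-1 is engaged by PD-L1 and PD-L2 on tumor, myeloid and other cells, and CTLA-4 competes with the activating receptor CD28 for CD80 and CD86 on antigen-presenting cells. LAG-3, TIGIT and TIM-3 accumulate with PD-1 on T cells under persistent stimulation, a state called exhaustion in which Tox is a central transcription factor, and antibodies to several of these proteins are used in liver cancer. In bulk tumor RNA, more cells of a type and more RNA of a gene per cell cannot be told apart.

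The 10 genes lie on 6 chromosomes of the mouse genome (GENCODE M21, GRCm38), all of them protein-coding. Cd274 (chr19:29367455-29388095, plus strand) and Pdcd1lg2 (chr19:29410919-29471161, plus strand) are neighbors, 22.8 kb apart with 0 protein-coding genes between them. Jak2, the kinase gene of the interferon pathway, lies 54.4 kb before Cd274 with 3 protein-coding genes between them. Pdcd1 (chr1:94038305-94052553, minus strand) and Ctla4 (chr1:60887000-60915832, plus strand) share chromosome 1 but lie far apart. Tigit (chr16:43648867-43664146, minus strand), Cd80 (chr16:38455561-38496335, plus strand) and Cd86 (chr16:36603869-36666081, minus strand) are on chromosome 16. Lag3 is at chr6:124904361-124911705 on the minus strand, Havcr2 at chr11:46454935-46481255 on the plus strand and Tox at chr4:6686353-6991557 on the minus strand. Exons of Cd274 overlap those of an antisense gene over 511 bases and exons of Tox over 260 bases, and whether reads were counted by strand is not given in the sources used here. Sequence shared with other genes was little, since between 0 and 1.68% of the 50-base stretches of each gene also occurred elsewhere in the transcripts.

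RefSeq promoter sequences (GRCm38.p6) were found for 7 of the 10 genes, all but Cd86, Lag3 and Tox. The 250 bases before the transcription start are shown for all 7. A link between these sequences and the measured levels was not tested. Capitals mark matches, on either strand, to the AP-1 motif TGANTCA or the NFAT motif GGAAAA, and each sequence runs 5′ to 3′ on the strand of its gene.
Pdcd1, chr1:94052554-94052803, minus strand: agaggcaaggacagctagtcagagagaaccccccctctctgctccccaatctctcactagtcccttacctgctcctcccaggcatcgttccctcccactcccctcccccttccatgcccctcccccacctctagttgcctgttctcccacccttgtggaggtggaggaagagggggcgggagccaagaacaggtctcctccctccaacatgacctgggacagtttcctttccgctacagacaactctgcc
Cd274, chr19:29367188-29367437, plus strand: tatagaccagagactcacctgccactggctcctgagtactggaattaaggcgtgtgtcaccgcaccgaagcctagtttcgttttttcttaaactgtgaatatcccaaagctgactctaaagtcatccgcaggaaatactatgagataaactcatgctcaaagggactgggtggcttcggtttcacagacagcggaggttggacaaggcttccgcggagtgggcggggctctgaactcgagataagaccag
Pdcd1lg2, chr19:29410669-29410918, plus strand: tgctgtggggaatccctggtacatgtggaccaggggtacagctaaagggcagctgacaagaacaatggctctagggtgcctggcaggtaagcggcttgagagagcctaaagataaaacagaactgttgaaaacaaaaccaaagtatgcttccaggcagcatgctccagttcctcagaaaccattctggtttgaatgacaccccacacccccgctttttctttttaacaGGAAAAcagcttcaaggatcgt
Ctla4, chr1:60908775-60909024, plus strand: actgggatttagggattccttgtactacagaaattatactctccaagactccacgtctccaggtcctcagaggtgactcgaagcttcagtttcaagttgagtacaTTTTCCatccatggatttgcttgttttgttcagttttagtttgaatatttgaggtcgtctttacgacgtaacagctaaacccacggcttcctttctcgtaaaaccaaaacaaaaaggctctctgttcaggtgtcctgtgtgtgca
Tigit, chr16:43664185-43664434, minus strand: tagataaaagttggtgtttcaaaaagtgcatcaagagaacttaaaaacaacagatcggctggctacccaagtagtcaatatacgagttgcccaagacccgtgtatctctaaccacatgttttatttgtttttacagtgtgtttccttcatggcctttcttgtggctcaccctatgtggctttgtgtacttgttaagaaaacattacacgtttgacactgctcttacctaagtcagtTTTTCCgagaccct
Havcr2, chr11:46454681-46454930, plus strand: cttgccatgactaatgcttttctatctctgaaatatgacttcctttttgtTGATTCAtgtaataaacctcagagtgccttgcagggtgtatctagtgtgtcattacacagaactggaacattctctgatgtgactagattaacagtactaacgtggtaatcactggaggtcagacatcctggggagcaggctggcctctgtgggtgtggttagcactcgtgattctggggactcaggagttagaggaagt
Cd80, chr16:38458683-38458932, plus strand: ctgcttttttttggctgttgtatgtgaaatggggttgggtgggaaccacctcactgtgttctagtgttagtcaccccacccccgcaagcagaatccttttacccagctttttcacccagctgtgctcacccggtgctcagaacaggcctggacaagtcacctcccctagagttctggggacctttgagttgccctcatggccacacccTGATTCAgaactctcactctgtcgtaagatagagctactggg

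Pdcd1lg2, Ctla4 and Tigit each held 1 NFAT match, which begins at position -22, -145 and -14 from the RefSeq start, respectively. Of 32851 promoters of the same length, 20.4% hold at least 1. For Cd274, Havcr2 and Tigit, no GENCODE M21 transcript of the gene begins at the RefSeq start. Havcr2 and Cd80 each held 1 AP-1 match, beginning at positions -200 and -42, against 6.75% of promoters. The gamma-activated (GAS) motif TTCNNNGAA, the interferon regulatory factor motif (GAAA, NN and GAAA in a row) and the NF-kB motif (GGGAN followed by TTTCC) matched in 0 of the 7 windows, and in 7.02%, 2.98% and 0.356% of promoters. The Pdcd1 and Cd274 windows held none of the 5 motifs. No window held more than 1 match, so none overlap.

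The libraries held 15529940 to 18401178 counts, and a floor of 3 counts corresponds to 0.132 to 0.323 CPM (counts scaled to a common library size with TMM factors), which covers counting error only. One control stood apart from the others in its group. Over log2 CPM of all genes tested, control 5 correlated with the GOx-DOX-LGP libraries at r = 0.966 to 0.975 but with controls 6 and 7 at 0.730 and 0.659, while controls 6 and 7 correlated with each other at 0.969. Albumin (Alb), the main secreted protein of hepatocytes, reached 73804 and 128244 CPM in controls 6 and 7, against 353 CPM in control 5 and 733 to 1893 CPM in the treated tumors. The summed level of 11 hepatocyte markers reached 125420 and 209340 CPM in controls 6 and 7, against 676 CPM in control 5 and 1402 to 3530 CPM in the treated tumors. The HCC marker alpha-fetoprotein (Afp) was low in all libraries, at 2.25 to 13.2 CPM, whereas the epithelial keratins Krt8 and Krt18 lay between 313 and 790 CPM. Of the 6 HCC markers listed, Gpc3, H19 and Epcam were also low, at up to 2.29, 2.15 and 8.55 CPM. The part of the liver RNA in the results below was not tested. Calls and fold changes of the checkpoint genes are therefore also given without control 5, and the medians of the other lists where they moved by over 1.5 times.

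None of the 10 checkpoint genes passed an adjusted p of 0.05 over all 15374 genes tested (edgeR quasi-likelihood test), where the share called was 0%. All 10 had a positive log2 fold change, between 0.37 and 2.03 with a median of 1.13, while 51.1% of all genes had a positive value and their median was 0.02. The 10 genes were not independent, since their levels correlated pairwise at r = 0.632 to 0.997 over the 6 libraries. An unadjusted p under 0.05 in the higher direction was reached by 4 of the 10 genes, Pdcd1, Ctla4, Tigit and Tox, against 2.87% of all genes. DESeq2 gave an adjusted p to 8 of the genes and called 1, Pdcd1, against 0.684% called higher among all genes. The edgeR exact test also called 1, Pdcd1, with an adjusted p of 0.0376, against 0.397% called higher of all genes. By limma voom with sample quality weights, which weights libraries unequally, all 10 were called, as were 29.2% of all genes in the higher direction. Its log2 fold changes lay between 0.88 and 4.17, against 1.16 to 4.52 by edgeR without control 5. In 5 of the 10 genes every GOx-DOX-LGP library lay above every control, against 8.87% of all genes, and these were 4 of the 5 receptors (Pdcd1, Ctla4, Lag3 and Tigit) together with Tox. The reverse order, seen in 8.31% of all genes, occurred in 0 of the 10. None of the 4 ligands separated the groups, and whether receptors and ligands differ in this was not tested.

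**Figure D1:**
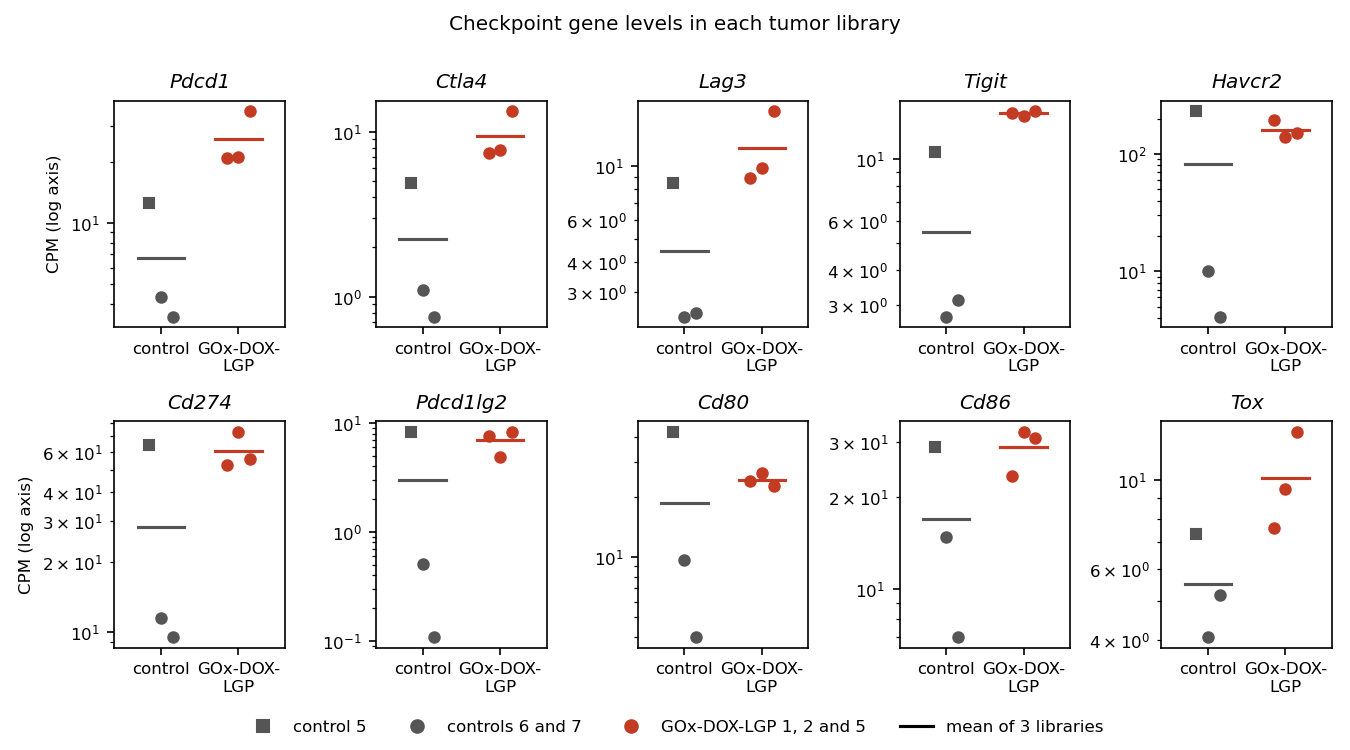
Level of each checkpoint gene in the 6 tumor libraries, in CPM on log axes that differ between panels, with horizontal lines for the mean of 3 libraries. Control 5 (square) lies above controls 6 and 7 in all 10 panels, and the GOx-DOX-LGP points lie above all control points for Pdcd1, Ctla4, Lag3, Tigit and Tox.

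Pdcd1 encodes PD-1, the target of anti-PD-1 antibodies. In controls 5, 6 and 7 its level was 12.5, 4.32 and 3.44 CPM. In GOx-DOX-LGP 1, 2 and 5 it was 20.8, 21.1 and 35.3 CPM. The means were 6.74 ± 4.97 and 25.8 ± 8.30 CPM (SD, n = 3 each). The groups did not overlap, and the highest control, control 5, reached 12.5 CPM against a lowest treated value of 20.8 CPM. The log2 fold change was 1.92 (SE 0.56), with an adjusted p of 0.247 by edgeR and of 0.0234 by DESeq2. The exact permutation test gave p = 0.1, the smallest that 3 against 3 libraries allow.

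Ctla4, the receptor that competes with CD28 for CD80 and CD86, had the highest fitted fold change of the set. It measured 4.87, 1.10 and 0.753 CPM in controls 5, 6 and 7, which rest on 111, 13 and 7 counts. In the GOx-DOX-LGP libraries it measured 7.36, 7.74 and 13.3 CPM. The groups were separate, and the means were 2.24 ± 2.28 and 9.46 ± 3.30 CPM (SD, n = 3 each). The log2 fold change of 2.03 (SE 0.75) had an adjusted p of 0.257 by edgeR and 0.0719 by DESeq2.

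Lag3 encodes a receptor for MHC class II that limits T cell expansion. Its values were 8.51, 2.37 and 2.48 CPM in the controls and 8.95, 9.80 and 16.8 CPM after GOx-DOX-LGP. Control 5 and GOx-DOX-LGP 1 differed by less than 1 CPM, so that the separation between the groups was narrow. Lag3 had a log2 fold change of 1.39 (SE 0.60) and an adjusted p of 0.301 (edgeR).

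Tigit encodes the inhibitory counterpart of CD226 on T and NK cells. It was at 10.6, 2.71 and 3.12 CPM in the controls and at 14.7, 14.3 and 14.8 CPM after GOx-DOX-LGP. The treated libraries lay close together, at 14.6 ± 0.270 CPM, whereas the controls spread over 5.48 ± 4.45 CPM (SD, n = 3 each). For Tigit the log2 fold change was 1.40 (SE 0.57) with an adjusted p of 0.281 (edgeR).

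Havcr2 encodes TIM-3, which is carried by T cells and also by macrophages and dendritic cells, and had the widest range of the set. Control 5 held 231 CPM, control 6 10.1 CPM and control 7 4.09 CPM, so that control 5 was 32.5 times the mean of the other controls. The GOx-DOX-LGP libraries held 194, 140 and 150 CPM, all below control 5 and all above controls 6 and 7. Over all libraries the log2 fold change was 0.98 (SE 1.37) with an adjusted p of 0.682 (edgeR). Havcr2 is among the immune genes in a heatmap that the study made from these tumors, so its values are not independent evidence of a direction.

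Among the ligands, Cd274 (PD-L1) was at 64.3, 11.4 and 9.47 CPM in the controls and at 52.4, 73.3 and 55.7 CPM after GOx-DOX-LGP. Only GOx-DOX-LGP 2 lay above control 5, and the means of 28.4 ± 31.1 and 60.5 ± 11.3 CPM (SD, n = 3 each) differed by about the spread of the controls. The PD-L1 gene had a log2 fold change of 1.08 (SE 0.76) with an adjusted p of 0.461 (edgeR). Its neighbor Pdcd1lg2 (PD-L2) was at 8.38, 0.509 and 0.108 CPM in the controls, from 191, 6 and 1 counts, the last of which is under the floor of 3 counts. After GOx-DOX-LGP it measured 7.61, 4.90 and 8.38 CPM, and control 5 was the highest of the 6 libraries by a small margin. Its log2 fold change of 1.17 (SE 1.25) had an adjusted p of 0.602 (edgeR).

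Cd80 and Cd86 encode the shared ligands of CD28 and CTLA-4 on dendritic cells, macrophages and B cells. Cd80 was at 42.4, 9.67 and 3.98 CPM in the controls and at 24.1, 26.2 and 22.7 CPM in the GOx-DOX-LGP libraries, so control 5 exceeded every treated library. It had the smallest fold change of the set, 0.37 (SE 0.80) on the log2 scale, with an adjusted p of 0.794 (edgeR). That value turned negative when control 7 was left out (-0.10) and when the mean of the hepatocyte markers was a covariate (-0.24). Cd86 was at 29.0, 14.8 and 6.99 CPM in the controls and at 23.4, 32.5 and 31.0 CPM after GOx-DOX-LGP, with control 5 within the treated range. Its log2 fold change was 0.77 (SE 0.51) with an adjusted p of 0.438 (edgeR). The log2 ratio of Cd80 to Cd86 was 0.54, -0.60 and -0.80 in the controls and 0.04, -0.31 and -0.45 in the GOx-DOX-LGP libraries, and the groups differed by 0.05 (exact permutation test, p = 1).

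Tox, the transcription factor tied to T cell exhaustion, varied least between the controls, at 7.33, 4.07 and 5.17 CPM. In the GOx-DOX-LGP libraries it was at 7.61, 9.50 and 13.2 CPM. The groups did not overlap, but control 5 and GOx-DOX-LGP 1 lay close together. Tox had a log2 fold change of 0.86 (SE 0.35) with an adjusted p of 0.286 (edgeR).

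Without control 5, all 10 genes had an adjusted p under 0.05 in the higher direction (edgeR), as did 22.2% of the 16249 genes then tested while 25.5% were called lower, and all 10 separated the groups, as did 36.8%. Both remaining controls are those with high hepatocyte levels. The median log2 fold change of the set was 2.46 in this fit, against 1.13 with all libraries. Havcr2 moved most, to 4.52 (SE 0.43, adjusted p = 0.0002, edgeR), followed by Pdcd1lg2 at 4.42 (SE 0.61, adjusted p = 0.0012, edgeR), whose remaining controls rest on 6 and 1 counts. Ctla4 reached 3.35 (SE 0.46), Pdcd1 2.75 (SE 0.34), Cd274 2.56 (SE 0.24), Tigit 2.36 (SE 0.25) and Lag3 2.32 (SE 0.39) on the log2 scale. Cd80 was at 1.85 (SE 0.37), Cd86 at 1.44 (SE 0.35) and Tox at 1.16 (SE 0.34). With the hepatocyte markers as a covariate and all 6 libraries, the log2 fold changes lay between -0.24 and 1.44, those of Ctla4 (1.44) and Pdcd1 (1.39) were the highest, and none passed the test, as with 0% of all genes called higher.

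**Figure D2:**
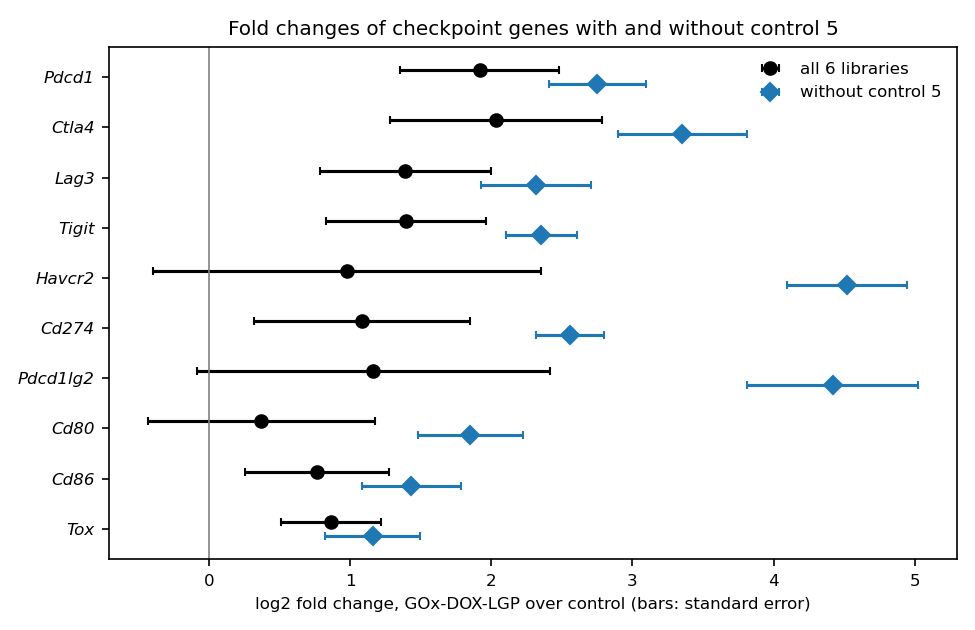
Log2 fold change of GOx-DOX-LGP over control for each checkpoint gene, from all 6 libraries (circles) and without control 5 (diamonds), with bars for the standard error. Leaving out control 5 raised every estimate, from 0.98 to 4.52 for Havcr2 and from 0.86 to 1.16 for Tox.

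Levels were compared between genes as CPM per kilobase of exonic length. In the GOx-DOX-LGP libraries, Havcr2 was the highest at 59.3 ± 10.5 CPM per kilobase (SD, n = 3) and did not overlap the next gene. Cd274 (16.7 ± 3.11), Tigit (15.9 ± 0.293) and Pdcd1 (13.3 ± 4.30) followed on the same scale, with ranges that overlapped from each gene to the next. Cd86 (7.91 ± 1.34) lay below the lowest Pdcd1 value, and from Cd86 through Cd80 (6.57 ± 0.479), Lag3 (5.62 ± 2.05), Ctla4 (4.06 ± 1.42) and Pdcd1lg2 (3.55 ± 0.932) each gene overlapped the next. Tox was the lowest at 1.33 ± 0.371 CPM per kilobase and overlapped none of the others. In the controls the ranges of all genes next to each other in the order overlapped, with Havcr2 at 30.0 ± 47.5 CPM per kilobase and Tox at 0.726 ± 0.218 at the ends (SD, n = 3).

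**Figure D3:**
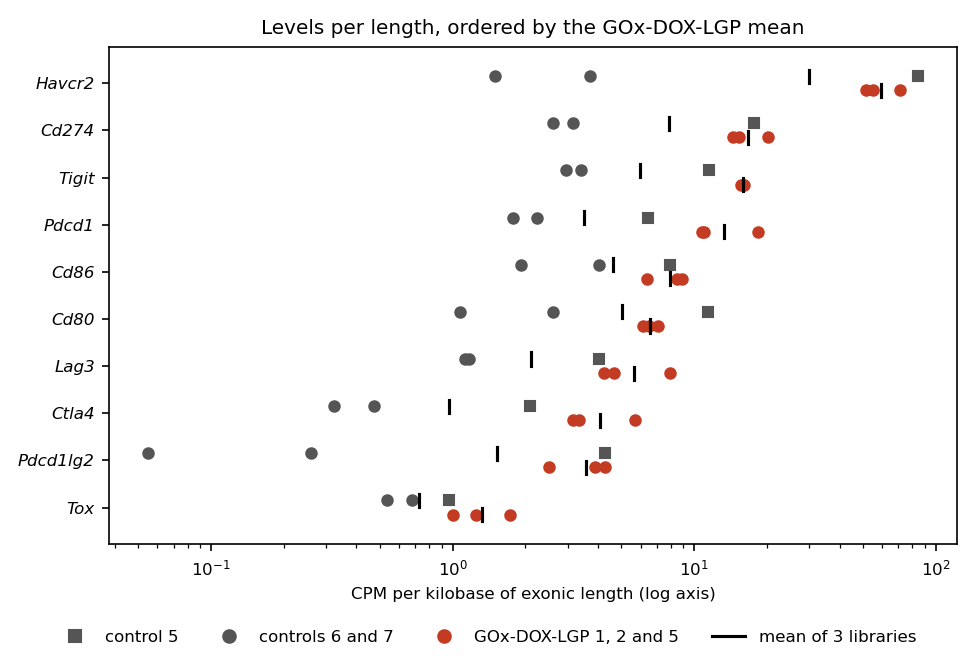
Level of each checkpoint gene in CPM per kilobase of exonic length (log axis), with 1 point per library and black bars for the mean of 3 libraries. Genes are ordered by the GOx-DOX-LGP mean, from Havcr2 at 59.3 to Tox at 1.33 CPM per kilobase.

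Markers of the cells that carry these genes were read in the same libraries. All 15 T cell markers had a positive log2 fold change, with a median of 1.29, and 0 passed an adjusted p of 0.05 by edgeR, 10 had an unadjusted p under 0.05 (2.87% of all genes in that direction) and DESeq2 called 7 (0.684%). In 12 of the 15 the groups did not overlap, against 8.87% of all genes. In controls 5, 6 and 7 their summed level was 125, 84.4 and 49.5 CPM, against 168, 191 and 262 CPM after GOx-DOX-LGP, so that control 5 was the highest control and lay below every treated library. Cd3e, a chain of the T cell receptor complex, was at 11.3, 7.97 and 5.49 CPM in the controls and at 17.7, 20.2 and 29.5 CPM after treatment (log2 fold change 1.44, SE 0.36, adjusted p = 0.247, edgeR). Cd8a, the cytotoxic co-receptor, was at 25.4, 10.1 and 5.60 CPM against 28.8, 29.5 and 36.6 CPM, with a log2 fold change of 1.20 (SE 0.55). Cd4, the helper co-receptor, overlapped between the groups, at 13.5, 8.06 and 3.66 CPM against 12.1, 9.45 and 14.2 CPM. Foxp3, which defines regulatory T cells, was at 2.19, 0.763 and 0.430 CPM against 2.52, 3.77 and 2.76 CPM, and the 3 regulatory T cell markers had a median log2 fold change of 1.23, or 2.21 without control 5.

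Myeloid markers were read as separate lists for macrophages and dendritic cells. The 10 macrophage markers all had a positive log2 fold change, with a median of 1.02, and 4 separated the groups, against 8.87% of all genes. Their summed level was 1693, 1312 and 819 CPM in the controls and 1642, 4334 and 2304 CPM in GOx-DOX-LGP 1, 2 and 5, so that GOx-DOX-LGP 1 lay below control 5. Adgre1, which encodes the macrophage antigen F4/80, was at 40.5, 44.0 and 28.9 CPM against 27.8, 106 and 50.8 CPM, and Csf1r, the receptor for macrophage growth factor, at 115, 118 and 81.5 CPM against 72.0, 173 and 100 CPM. The 9 dendritic cell markers had a median log2 fold change of 0.13, with 6 positive and 3 negative values and a summed level of 204, 84.5 and 55.4 CPM against 141, 124 and 177 CPM. Without control 5 the median was 0.81, and 3 of the 9 were called higher and 1 lower (edgeR). Of all genes, 22.2% were then called higher and 25.5% lower. Itgax, which encodes CD11c, was at 86.2, 18.9 and 5.70 CPM against 57.3, 42.3 and 64.9 CPM, and as with Cd80 control 5 was the highest. Flt3, the receptor for the dendritic cell growth factor, was at 7.28, 3.56 and 0.323 CPM against 5.49, 4.16 and 7.23 CPM. The negative values were those of Zbtb46, Clec9a and Cd209a. Only Zbtb46 separated the groups, lower at 6.84, 10.8 and 14.9 CPM against 6.23, 5.49 and 6.40 CPM, as did 8.31% of all genes in that direction. NK cell markers (2 of 4 tested) and B cell markers (2 of 4 tested) were low, with summed levels of 0.861 to 8.17 and 1.67 to 7.04 CPM, and median log2 fold changes of 1.04 and -0.58, or 2.05 and -0.91 without control 5. The 4 endothelial markers had negative values with a median of -1.50. The part of these cell types in the checkpoint levels was not tested.

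The level of each checkpoint gene was therefore also expressed relative to the T cell markers of the same library, as its log2 CPM minus the mean log2 CPM of the 15 markers. On this scale 1 of the 10 genes, Pdcd1, was higher in every treated library than in every control, as were 0.15% of all genes. Its values were 0.93, -0.12 and 0.37 in controls 5, 6 and 7 and 1.23, 0.97 and 1.32 in the GOx-DOX-LGP libraries, a difference of 0.78 (exact permutation test, p = 0.1, the smallest possible). Ctla4 was at -0.40, -1.99 and -1.67 in the controls and at -0.26, -0.46 and -0.09 after GOx-DOX-LGP, with control 5 inside the treated range (difference 1.08, exact p = 0.2). Lag3 and Tigit differed by 0.27 and 0.35 relative to the T cell markers (exact p = 0.8 and 0.6), and Tox by -0.46 (exact p = 0.3). Havcr2 was at 5.13, 1.08 and 0.61 in the controls and 4.44, 3.70 and 3.40 in the treated libraries (difference 1.57, exact p = 0.4). The ligands Cd274, Pdcd1lg2, Cd80 and Cd86 differed by 0.31, 1.38, -0.29 and -0.34, all with overlapping groups. Relative to the macrophage markers the same ligands differed by 0.67, 1.74, 0.07 and 0.02 (exact permutation tests, p = 0.4, 0.4, 1 and 0.9). These results moved with the markers and libraries used. With Cd3d, Cd3e and Cd3g alone as the markers, Pdcd1 overlapped between the groups and Tox was lower in all treated libraries, as were 74.2% of all genes. Without control 5 the genes separated in the higher direction were 5, against 4.66% of all genes, namely Pdcd1, Ctla4, Cd274, Pdcd1lg2 and Havcr2.

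**Figure D4:**
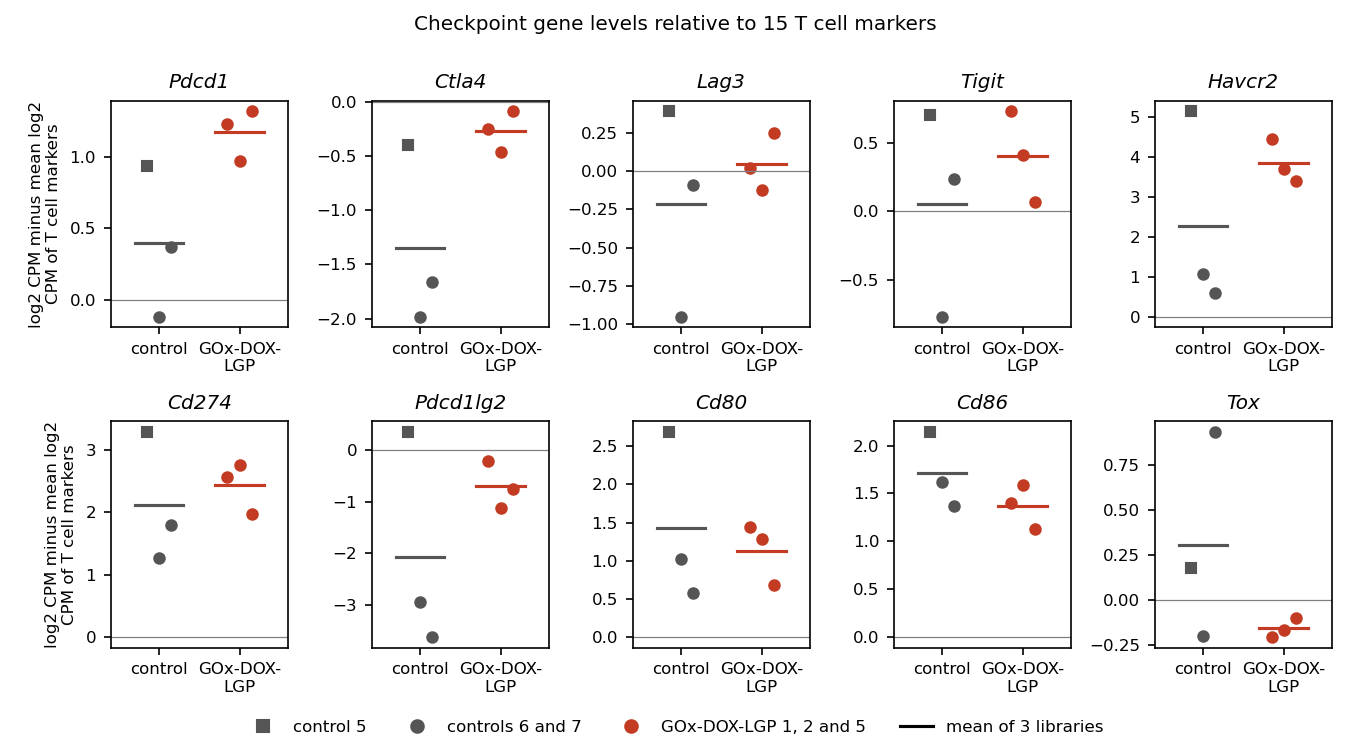
Log2 CPM of each checkpoint gene minus the mean log2 CPM of 15 T cell markers in the same library, with 1 point per library and lines for the mean of 3 libraries; axes differ between panels. Only in the Pdcd1 panel do all GOx-DOX-LGP points, from 0.97 to 1.32, lie above all controls, the highest of which is control 5 at 0.93.

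Receptors were also set against the activating receptors that share their ligands. CD28 and CTLA-4 both bind CD80 and CD86. Cd28 was at 9.21, 4.66 and 2.37 CPM in the controls and 7.32, 6.96 and 10.7 CPM after GOx-DOX-LGP, with overlap and a log2 fold change of 0.61 (SE 0.52, adjusted p = 0.530, edgeR). The log2 ratio of Ctla4 to Cd28 was -0.90, -1.97 and -1.51 in the controls and 0.01, 0.15 and 0.30 in the treated libraries. The ratio, taken on CPM and not per length, was higher in every treated library than in every control, by 1.62 on average (exact permutation test, p = 0.1). CD226 and TIGIT both bind the poliovirus receptor (Pvr). Cd226 ranged from 2.48 to 3.73 CPM in the controls and from 3.21 to 4.32 CPM in the treated libraries (log2 fold change 0.20, SE 0.31). The log2 ratio of Tigit to Cd226 was 1.71, -0.44 and 0.32 in the controls and 2.15, 2.09 and 1.75 after GOx-DOX-LGP, which separated the groups by a margin of 0.04 above control 5 (difference 1.47, exact p = 0.1). The log2 ratio of Cd274 to Pdcd1lg2 differed by -1.07 (exact p = 0.2). These were 3 of 4 ratios computed, the other being Cd80 to Cd86, and an exact test of 3 against 3 libraries cannot give a p below 0.1.

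The remaining ligands and receptors of the set were measured as a list of 10 binding partners, of which 6 had a positive and 4 a negative log2 fold change, with a median of 0.17 and 0 called by edgeR. Cd96, a further receptor for Pvr, was at 5.62, 2.97 and 2.26 CPM against 7.41, 8.18 and 9.73 CPM without overlap (log2 fold change 1.21, SE 0.41, adjusted p = 0.247, edgeR). Pvrig, an inhibitory receptor for Nectin2, lay between 0.646 and 1.40 CPM and separated the groups narrowly (log2 fold change 0.61). Pvr was at 109, 29.4 and 23.5 CPM against 104, 68.1 and 111 CPM, and Nectin2 at 28.6, 50.6 and 66.8 CPM against 28.3, 29.5 and 27.3 CPM. As with Nectin2, the 3 partners with the lowest fold changes were highest in controls 6 and 7. Fgl1, a LAG-3 ligand secreted by hepatocytes, was at 6.58, 1357 and 346 CPM in the controls and 17.1 to 30.4 CPM after GOx-DOX-LGP. Ceacam1, a TIM-3 ligand, was at 3.33, 203 and 334 CPM against 3.49 to 5.83 CPM. Lgals9, which encodes the TIM-3 ligand galectin-9, was at 33.7, 499 and 731 CPM against 40.4 to 68.8 CPM. DESeq2 called these lower, with log2 fold changes by edgeR of -4.47, -5.19 and -2.97, and in each of them control 5 lay below every treated library. Rgmb, a PD-L2 partner, had a log2 fold change of 0.13.

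Across the 5 lists of related genes, 63 of 66 genes were tested and 0 were called by edgeR. An unadjusted p under 0.05 was reached by 6 in the higher and 5 in the lower direction, against 2.87% and 14.6% of all genes. DESeq2 called 2 higher, against 0.684% of all genes, and 4 lower, against 9.85%. The log2 fold change was positive in 51 and negative in 12, with a median of 0.60, or 1.09 without control 5. The costimulatory pairs had the highest median, 1.45, with 10 of 10 tested genes positive and 6 without overlap, against 8.87% of all genes, and without control 5 the median was 2.27. The smallest p among them belonged to Cd27, a TNF receptor of T cells, at 5.35, 2.37 and 3.01 CPM against 7.32, 10.0 and 13.6 CPM (log2 fold change 1.51, SE 0.43, adjusted p = 0.247 by edgeR and 0.0232 by DESeq2). Among 18 other inhibitory checkpoints, 16 values were positive with a median of 0.60 (1.03 without control 5), and the gene with the smallest p was Vtcn1, which encodes the inhibitory ligand B7-H4. Vtcn1 was lower, at 0.570, 5.26 and 5.49 CPM in the controls and 0.104 to 0.490 CPM after GOx-DOX-LGP (log2 fold change -3.77, SE 1.02, adjusted p = 0.247 by edgeR and 0.00416 by DESeq2).

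**Figure D5:**
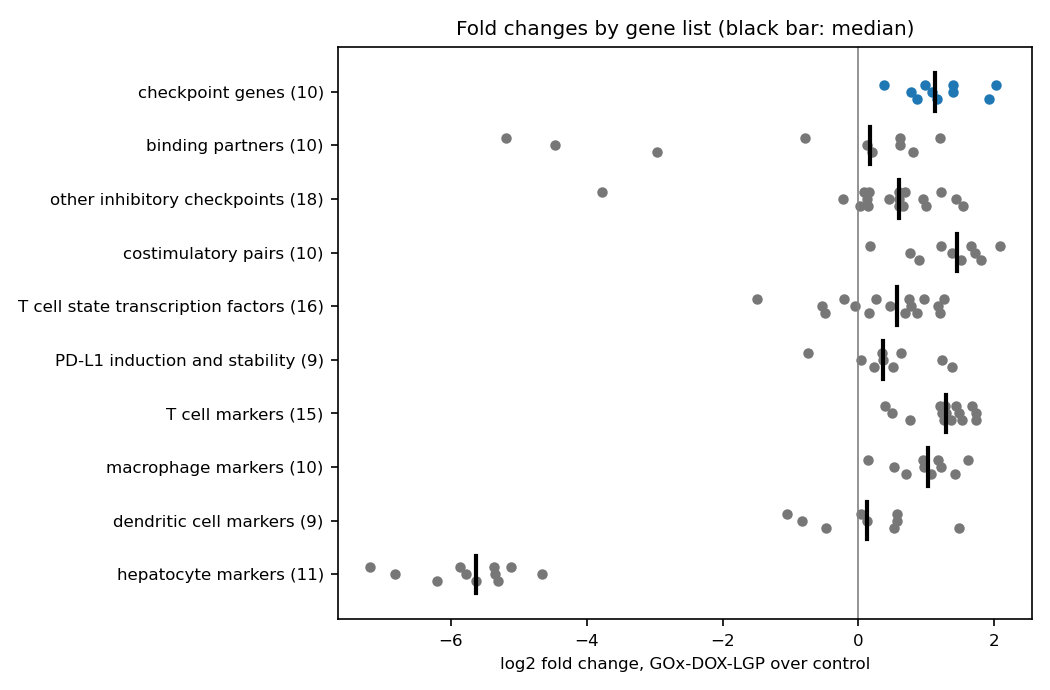
Log2 fold change of GOx-DOX-LGP over control (edgeR, all 6 libraries) for each tested gene of the checkpoint set, the related gene lists and the cell type markers, with the number tested in brackets and black bars for the median. The checkpoint genes lie between 0.37 and 2.03 around a median of 1.13, and the hepatocyte markers around -5.63.

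The T cell state transcription factors had 11 positive and 5 negative values among 16 tested, with a median of 0.58 (1.03 without control 5). Eomes, a T-box factor of effector and exhausted CD8 T cells, had the smallest p and, unlike the checkpoint genes, was as low in control 5 as in the other controls. It measured 4.39, 4.49 and 3.98 CPM in the controls and 7.61, 11.3 and 10.0 CPM after GOx-DOX-LGP, and the groups did not overlap. Its log2 fold change was 1.17 (SE 0.27), with an adjusted p of 0.247 by edgeR and 0.00269 by DESeq2, and it was 1.22 (adjusted p = 0.0145, edgeR) without control 5. The relatives of Tox gave negative or untested values. Tox2 was at 1.32 to 2.37 CPM in the controls and 0.791 to 1.82 CPM in the treated libraries (log2 fold change -0.49), Tox4 was at 53.8 to 63.1 against 47.1 to 55.8 CPM (-0.21), and Tox3 was at or below 0.108 CPM in every library and not tested. Tcf7, the factor of stem-like T cells, was at 8.25, 6.78 and 11.3 CPM against 6.97, 5.73 and 5.52 CPM (log2 fold change -0.53, SE 0.30), which did not pass the test.

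Genes that induce or stabilize PD-L1 had 8 positive values of 9, a median log2 fold change of 0.36 (0.64 without control 5) and 0 calls by edgeR or DESeq2. Ifng, the cytokine that induces Cd274, was at 2.11, 0.254 and 0.430 CPM in the controls and at 2.92, 1.42 and 3.43 CPM after GOx-DOX-LGP, with control 5 inside the treated range (log2 fold change 1.38, SE 0.81). Irf1, a transcription factor induced by interferon, was at 235, 72.9 and 67.8 CPM against 184, 173 and 223 CPM, and as with Cd80 control 5 was the highest. Jak2 had a log2 fold change of 0.23. Cmtm6, which keeps PD-L1 at the cell surface, was at 62.6, 94.3 and 137 CPM against 56.5, 67.2 and 52.4 CPM (log2 fold change -0.74, SE 0.32, adjusted p = 0.304, edgeR).

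Among the genes most like Pdcd1 over the 6 libraries, by Pearson correlation of log2 CPM among all genes tested, were the ribosomal protein genes Rpl19 (r = 0.998) and Rpl30 (r = 0.997). Those most like Cd274 were Eif4b (r = 1.000), Plekhb2 (r = 0.997) and Il4ra (r = 0.997). These values describe 6 libraries in which controls 6 and 7 stand apart, and are not tests.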

How the data were processed

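RNA of 6 orthotopic HCA-1 tumors, 3 untreated and 3 given GOx-DOX-LGP, was sequenced from KAPA mRNA HyperPrep libraries. The deposited counts are raw counts per gene, not normalized and not pooled. The deposited signal values are the same counts divided by 1 size factor per library (0.532 to 1.322) and served only to pair identifiers with gene symbols. The paper names TopHat and HTSeq, whereas the submitters' processing notes list Trimmomatic 0.38, HISAT2 2.1.0 and featureCounts 2.0.0, and the build is not given in the sources used here. All 55536 identifiers are those of GENCODE M21 (GRCm38), which supplied positions and exonic lengths.

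In R 4.3.3 with edgeR 4.0.16, low counts were removed by filterByExpr (defaults), TMM factors were computed, and both groups were compared in 1 quasi-likelihood fit of the 6 libraries with no covariate. P-values were adjusted by Benjamini-Hochberg over 15374 genes, with a threshold of 0.05. CPM were scaled with the TMM factors, and a prior count of 2 was added for log2 CPM. Permutation tests were exact and two-sided. The alternatives were DESeq2 1.42.0, the edgeR exact test, limma 3.58.1 voom with sample quality weights, 4 other scalings, 2 other filters, hepatocyte markers as a covariate and leaving out each library. The steps were tested on simulated data in which, unlike in these tumors, no control stood apart from the others. Figures used matplotlib 3.10.9 in Python 3.11.15.

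Groups and numbers came from the sample labels, and 0 pairs of libraries were identical. The labels do not say more of how the tumors were sampled, so p-values measure only the spread between these samples. Named genes were all 10 checkpoint genes, all binding partners, chosen transcription factors, interferon genes and cell markers, the gene with the smallest p of each other list, and the 3 genes most like Pdcd1 and Cd274. Krt8, Krt18, Gpc3, H19, Epcam, Zbtb46, Clec9a, Cd209a and the ratios of paired genes lie outside this rule. Some genes that the rule selects are not reported here. The checkpoint genes and lists were chosen with earlier results of these data known.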

Additional observations from a re-analysis of the deposited data

How the results depend on the processing

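The number of calls depended on control 5 and on the test. Leaving out each library in turn gave 0 to 7745 genes called over all genes, 0 to 10 checkpoint genes and 0 to 39 related genes. In each case the highest number came without control 5 and the others were 0. Of the 16249 genes tested without control 5, 3601 (22.2%) were called higher and 4144 (25.5%) lower. All 10 checkpoint genes were then called higher, and of 63 related genes 32 were called higher and 7 lower. The checkpoint genes without overlap between groups, 5 of 10 with all libraries, numbered 5 to 10. With all libraries and other tests, DESeq2 called 1739 genes, 1 checkpoint gene and 6 related genes, and the edgeR exact test called 1098, 1 and 2. Limma voom with sample quality weights called 9254, 10 and 36, where the main test called 0 of each. Over all genes, 113 calls were higher and 1626 lower by DESeq2, 61 and 1037 by the exact test, and 4496 and 4758 by voom. The checkpoint genes called by these tests were all higher. The number of checkpoint genes separated relative to the T cell markers was 1, with Cd3d, Cd3e and Cd3g as the markers it was also 1 but a different gene in the lower direction, and it was 1 to 5 when each library was left out. The causes were not tested.

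Of 158 fold changes of single checkpoint genes over the alternatives, 134 kept their direction and their side of the threshold, 22 passed it and 2 reversed, both of Cd80, to -0.24 with the hepatocyte markers as a covariate and to -0.10 without control 7, the lowest of its values (up to 1.85) when each library was left out. DESeq2 gave no adjusted p for Pdcd1lg2 and Havcr2, which are not among these. Other scalings moved the median log2 fold change of all genes from 0.02 to between -0.26 (housekeeping genes) and 0.51 (library totals), and the checkpoint genes were all positive under each, with medians of 0.97 to 1.27. No paired analysis was made, because neither the labels nor the study's methods pair treated with untreated tumors. Pdcd1lg2 rests on 6 and 1 counts in controls 6 and 7.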
